A study of Homo sapiens with 6 samples.

Results

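The RNAs described here are those named as long intergenic noncoding RNAs or small RNA host genes in BT549 cells. They are the 165 of 23346 genes in the series count table whose symbol is LINC or SNHG with a number or runs from MIR to a final HG, with MALAT1, NEAT1, H19, MEG3 and GAS5 added by name. They comprise 134 LINC genes, 13 snoRNA host genes (GAS5 included), 14 miRNA host genes, and MALAT1, NEAT1, H19 and MEG3. The names are those of the count table, and 11 of the LINC genes are now annotated as coding, of which 4 were tested (LINC00085, LINC00094, LINC00116, now MTLN, and LINC00493). BT549 is a mesenchymal human breast cancer cell line, and the study asked which transcripts change when the zinc finger protein basonuclin-2 (BNC2) is knocked down. Wild-type BT549 cells received a pool of siRNAs against BNC2 or a negative control (NC) siRNA at 20 nM, and polyadenylated RNA was sequenced 6 days later, with 3 biological replicates in each group. A pooled siRNA lowers a transcript in part and does not remove it, so the comparison is between a lower and a normal BNC2 level in 1 line.

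MALAT1 and NEAT1 are long nuclear RNAs. MALAT1 lies in nuclear speckles, where splicing factors gather, and NEAT1 is the RNA scaffold of paraspeckles, bodies that hold RNA-binding proteins of the DBHS family. SnoRNA host genes carry small nucleolar RNAs in their introns, which guide the modification of ribosomal RNA, while the spliced exons are often removed by nonsense-mediated decay because they hold little or no reading frame. Many such hosts start with a run of pyrimidines, as ribosomal protein genes do (the terminal oligopyrimidine, or TOP, motif). A miRNA host gene is transcribed as a long RNA from which the enzyme Drosha cuts hairpins, so the spliced host RNA counted here is not a measure of the mature miRNA.

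By RefSeq gene extents, 12 of the 48 members that were abundant enough to test hold 28 miRNA genes, and the mature sequences below are shown because several hosts share a seed (bases 2 to 8, in capitals), the part of a miRNA that pairs with its targets. All are RefSeq sequences on build GRCh38.p14, written 5′ to 3′.
hsa-let-7b-5p in MIRLET7BHG, chr22:46113691-46113712, plus strand: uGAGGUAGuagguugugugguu
hsa-let-7a-5p in MIRLET7BHG, chr22:46112752-46112773, plus strand: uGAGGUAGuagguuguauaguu
hsa-let-7e-5p in LINC00085, chr19:51692793-51692814, plus strand: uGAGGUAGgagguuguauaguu
hsa-let-7c-5p in LINC00478, chr21:16539838-16539859, plus strand: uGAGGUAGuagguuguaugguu
hsa-miR-99b-5p in LINC00085, chr19:51692618-51692639, plus strand: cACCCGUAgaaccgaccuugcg
hsa-miR-100-5p in MIR100HG, chr11:122152275-122152296, minus strand: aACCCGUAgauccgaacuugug
hsa-miR-125a-5p in LINC00085, chr19:51693268-51693291, plus strand: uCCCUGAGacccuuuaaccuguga
hsa-miR-125b-5p in MIR100HG, chr11:122099809-122099830, minus strand: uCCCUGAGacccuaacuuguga
hsa-miR-210-3p in MIR210HG, chr11:568112-568133, minus strand: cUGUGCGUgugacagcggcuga
hsa-miR-600 in MIR600HG, chr9:123111561-123111583, minus strand: aCUUACAGacaagagccuugcuc

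The let-7 seed GAGGUAG occurred in 4 tested hosts (MIRLET7BHG, LINC00085, LINC00478 and MIR100HG), the miR-99/100 seed ACCCGUA in 3 and the miR-125 seed CCCUGAG in 2. LINC00085 is now named SPACA6, a coding gene, and LINC00478 is now MIR99AHG. The mature sequences in LINC00085 lie within its RefSeq extent but upstream of the annotated start used for its 5′ end (chr19:51693330). The same holds for let-7a-5p and miR-100-5p in MIR100HG (start chr11:122100846, minus strand). Whether the counted transcripts span these miRNAs was not tested. These 4 hosts of let-7 genes lie on different chromosomes.

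The 5′ ends of snoRNA hosts are shown because of the TOP motif. Each line gives the 15 bases before the annotated RefSeq start and the first 15 of the transcript on the transcribed strand, GRCh38.p14, with the longest unbroken run of C and T in capitals.
SNHG4, chr5:139274086-139274115, plus strand: ctcggctcccggctgCCCTTTCCCCTCCgg
SNHG12, chr1:28581859-28581888, minus strand: tcgcggcttcagcgCCCTTTCTCCCCgccg
SNHG5, chr6:85678719-85678748, minus strand: gctgcgcacttcggTCTTTTacgtcggcct
SNHG1, chr11:62855871-62855900, minus strand: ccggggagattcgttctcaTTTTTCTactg
GAS5, chr1:173869031-173869060, minus strand: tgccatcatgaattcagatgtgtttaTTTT

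A run of at least 5 bases that were all C or T began at the annotated first base in 3 of 10 snoRNA hosts with a sequence (SNHG4, SNHG12 and SNHG5), in 6 of 39 tested members (15.4%) and in 5.17% of 35116 promoters in the table. The run was 13 bases in SNHG4, 11 in SNHG12 and 5 in SNHG5, and none began at the first base of GAS5 in this annotation. The 3 hosts with the run included the largest rise of the family (SNHG4), a small rise (SNHG5) and a host that was not called (SNHG12). No such sequence was at hand for SNHG9, SNHG15 and SNHG6, the hosts with the largest falls (log2 fold changes −1.48, −1.15 and −0.93).

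The 6 libraries held 16093978 to 18246254 gene counts, and reads that fell on no gene were 37.7% to 41.1% of each. BNC2 itself was at 65.6, 51.5 and 58.6 CPM (counts scaled to a common library size) in the NC siRNA libraries and at 35.5, 36.6 and 41.6 CPM in the BNC2 siRNA libraries, a log2 fold change of −0.63 (SE 0.09, adjusted p = 8.2e-06). The 5 mesenchymal markers (VIM, FN1, CDH2, ZEB1, SPARC) summed to 6367 to 6461 CPM with NC siRNA and 6501 to 6755 CPM with BNC2 siRNA, within which SPARC went from 2338 to 2366 CPM down to 1575 to 1678 CPM and CDH2 from 148 to 155 CPM up to 385 to 395 CPM. Of 6 epithelial markers, EPCAM and ESRP1 were at 0 in every library and CDH1 reached at most 1 count. Their sum, mostly KRT18, was 3.79 to 5.80 CPM with NC siRNA and 0.339 to 0.756 CPM with BNC2 siRNA. The 3 immune markers summed to 111 to 125 CPM and 138 to 150 CPM, nearly all CD68, with PTPRC at most 7 counts and CD3E at most 1. The part of these markers in the results was not tested. In bulk RNA, fewer cells that express a gene and less of its RNA per cell cannot be told apart.

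Of the 165 members, 48 passed the filter on low counts (over 1 CPM in at least 3 of 6 libraries) and 117 did not. Among those not tested, 60 had no read in any library, 37 had at most 3 counts in each and 20 exceeded 3 counts in some library. With BNC2 siRNA, 16 of the 48 were higher and 15 lower at an adjusted p of at most 0.05, and 17 were not called. The 31 called members are 64.6% of those tested, against 72.9% of all 12186 genes tested. By direction, 36.6% of all tested genes were called higher and 36.2% lower, so the members' shares in either direction lay near those of the whole transcriptome. The 3 BNC2 siRNA values and the 3 NC siRNA values did not overlap in 32 of 48 members, against 74.9% of all tested genes. At least 2-fold higher were 6 (LINC00460, LINC00173, LINC00263, LINC00346, SNHG4, MIR210HG), and at least 2-fold lower were 4 (LINC00260, LINC00152, SNHG9, SNHG15), where 8.07% and 10.1% of all tested genes passed the same rules.

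The members were mostly scarce. Their median level was 6.99 CPM, against 31.5 CPM over all tested genes, and their median standard error of the log2 fold change was 0.15, against 0.087. Below 5 CPM, 11 of 21 members were called (52.4%), beside 64.3% of all genes at that level. From 5 to 20 CPM the call was reached by 11 of 16 members (68.8%) and 69.2% of genes, and from 20 CPM by 9 of 11 (81.8%) and 76.4%. The median log2 fold change over the tested members was −0.16 and over all tested genes 0.00, while the median size regardless of sign was 0.49 and 0.44. It moved to −0.25 when NC siRNA replicate 1 was left out.

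**Figure D1:**
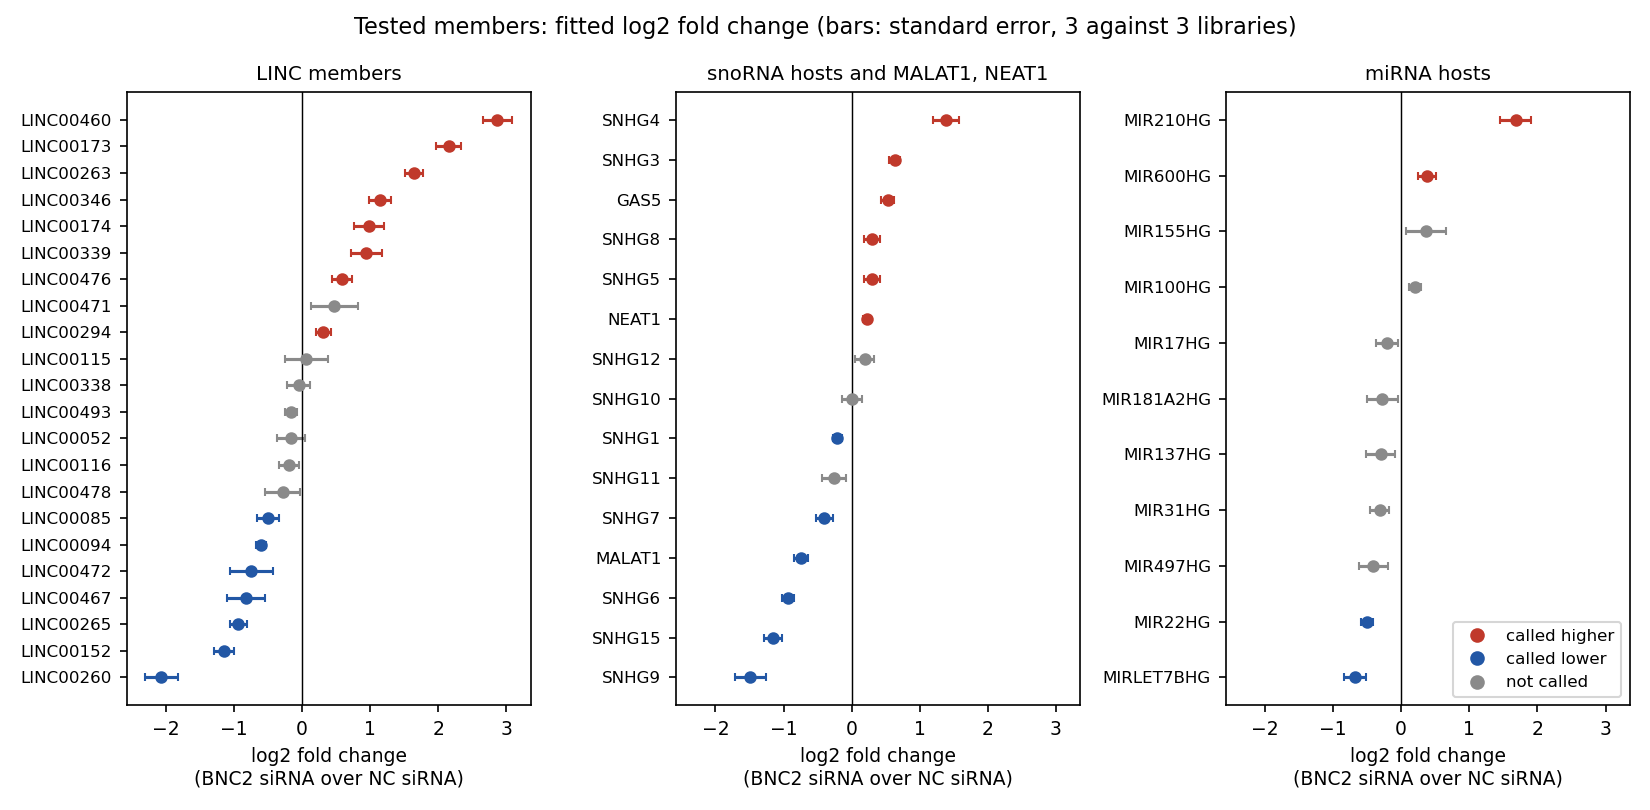
Log2 fold change of each of the 48 tested members (x axis, BNC2 siRNA over NC siRNA, bars are standard errors of the fit to 3 against 3 libraries), grouped as LINC genes, snoRNA hosts with MALAT1 and NEAT1, and miRNA hosts. Rises and falls are present in each panel, from 2.87 for LINC00460 to −2.07 for LINC00260.

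**Figure D2:**
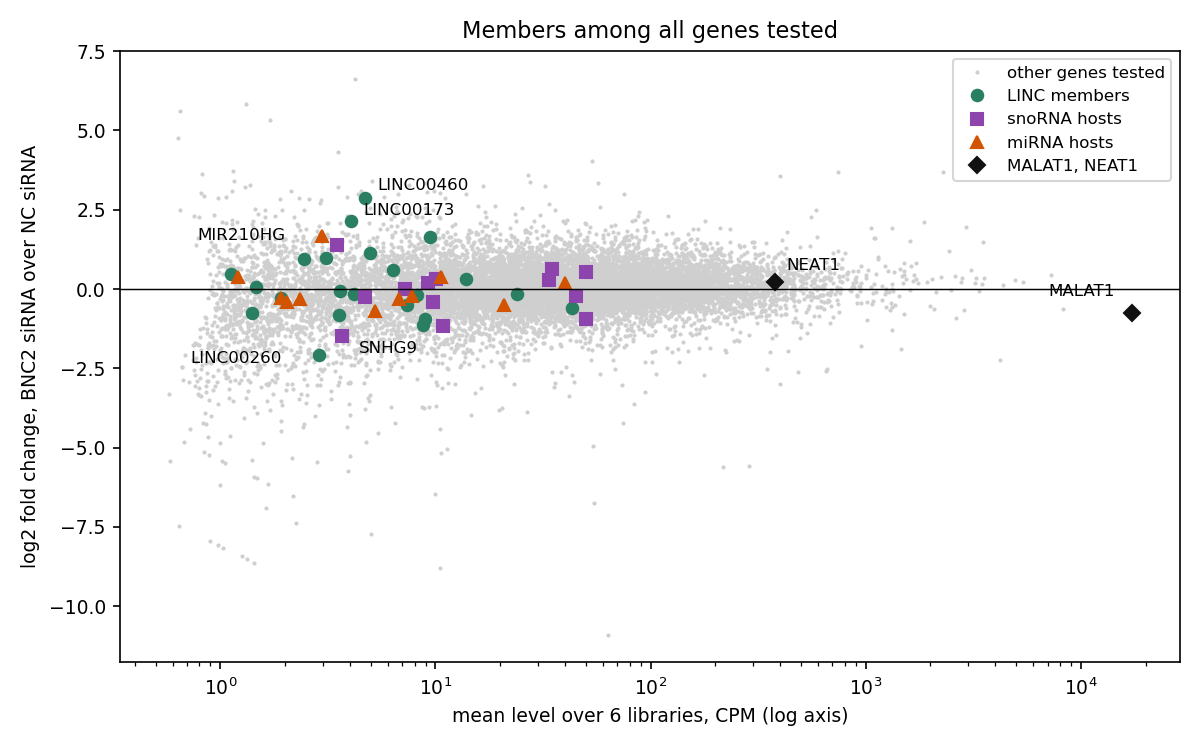
Log2 fold change (y axis) against the mean level over 6 libraries in CPM (log x axis) for all 12186 tested genes in grey and the 48 tested members in colour. The members sit within the grey cloud, mostly at its low-abundance end, with MALAT1 as the gene of highest CPM.

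MALAT1, the nuclear speckle RNA (chr11:65265111-65275544 on hg19, plus strand), took more counts than any other gene in all 6 libraries. Its level was 17275, 21259.9 and 26084 CPM with NC siRNA and 13174, 13662 and 11820.2 CPM with BNC2 siRNA. All 3 BNC2 siRNA libraries lay below all 3 NC siRNA libraries, among which the spread was wide (21539.6 ± 4411 CPM, SD, n = 3). MALAT1 fell by 0.74 on the log2 scale (SE 0.11, adjusted p = 8.34e-06), to 59.8% of the control mean. NEAT1, the paraspeckle scaffold (chr11:65190245-65213011 on hg19, plus strand), lies upstream of MALAT1 on the same strand. It was at 358, 357 and 340.4 CPM with NC siRNA and at 399.7, 421 and 408 CPM with BNC2 siRNA. NEAT1 rose by 0.22 (SE 0.05, adjusted p = 0.00142), a small rise with no overlap between groups, so that the counts of these neighbouring nuclear RNAs moved in opposite directions. The libraries were poly(A)-selected and counted per gene, so isoforms were not told apart and RNA without a poly(A) tail may be missed.

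Together the 165 members held 2.30% ± 0.422 of all gene counts with NC siRNA and 1.35% ± 0.0925 with BNC2 siRNA (SD, n = 3). The difference of −0.952 percentage points had an exact two-sided permutation p of 0.1, the smallest that 3 against 3 libraries allow. MALAT1 alone was 1.79% to 2.63% of counts with NC siRNA and 1.15% to 1.33% with BNC2 siRNA. Without MALAT1 and NEAT1 the members held 0.0577% ± 0.00168 and 0.0528% ± 0.00236, a difference of −0.00484 percentage points, so nearly all of the change in the sum was that of MALAT1.

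All 13 snoRNA hosts passed the filter, and they split evenly. GAS5, SNHG3, SNHG4, SNHG5 and SNHG8 rose, SNHG1, SNHG6, SNHG7, SNHG9 and SNHG15 fell, and SNHG10, SNHG11 and SNHG12 were not called. The largest rise was 2.62-fold (SNHG4) and the largest fall 2.80-fold (SNHG9). The 10 called hosts (76.9%, where 72.9% of all tested genes were called) had no overlap between groups, as had 74.9% of all tested genes. The family's median log2 fold change was 0.01. LINC00338, now named SNHG20, was counted with the LINC genes and was not called (log2 fold change −0.05).

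SNHG4 (chr5:138609791-138620588 on hg19, plus strand) hosts SNORA74A and SNORA74D, and is the host with the longest pyrimidine run above. It was at 2.37, 1.51 and 1.93 CPM with NC siRNA and at 5.29, 4.96 and 4.97 CPM with BNC2 siRNA. The log2 fold change was 1.39 (SE 0.19, adjusted p = 5.86e-06). Its exons share 626 bases with MATR3 on the same strand in the GENCODE hg19 annotation, so reads from that stretch could belong to either gene. The gene models behind the counts may differ from that annotation. SNHG3 (chr1:28832492-28837404, plus strand), host of SNORA73A and SNORA73B, was at 26.2, 27.8 and 28.1 CPM with NC siRNA and at 46.1, 40.2 and 41.1 CPM with BNC2 siRNA. It rose by 0.63 (SE 0.08, adjusted p = 1.82e-06), with all BNC2 siRNA libraries above all controls, and shares 242 exon bases with RCC1 on the same strand.

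GAS5 (chr1:173827697-173838020 on hg19, minus strand), named for its accumulation in growth-arrested cells, hosts 11 snoRNA genes, the most of any tested member. Its level was 37.0, 42.7 and 43.9 CPM with NC siRNA and 65.0, 62.2 and 50.9 CPM with BNC2 siRNA. The groups did not overlap and the log2 fold change was 0.53 (SE 0.09, adjusted p = 6.7e-05). SNHG5, host of the SNORD50 pair, was at 23.3, 34.7 and 32.3 CPM against 37.5, 37.5 and 36.1 CPM with BNC2 siRNA (log2 fold change 0.30, SE 0.11, adjusted p = 0.0234). NC siRNA replicate 1 was the low library, and without it the rise of SNHG5 was 0.12 (adjusted p = 0.178). Leaving out BNC2 siRNA replicate 1 or 2 (adjusted p = 0.0522 and 0.0583) or scaling by library totals (0.0735) also ended the call. SNHG8, host of SNORA24, rose by 0.30 (SE 0.12, adjusted p = 0.0315), from 8.97 ± 0.689 to 11.05 ± 1.04 CPM. That call was lost without BNC2 siRNA replicate 2, NC siRNA replicate 2 or NC siRNA replicate 3 (adjusted p = 0.156, 0.155 and 0.0573), and also with DESeq2 (0.0699), library totals (0.0996) and the replicate number as a block (0.0636).

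SNHG9 (chr16:2014896-2015510 on hg19, plus strand), a short gene that hosts SNORA78, was at 3.89, 5.99 and 6.44 CPM with NC siRNA and at 2.33, 1.75 and 1.72 CPM with BNC2 siRNA. It had the largest fall of the family, −1.48 (SE 0.22, adjusted p = 1.45e-05). SNHG15 (chr7:45022618-45026560, minus strand), host of SNORA9, was at 14.5, 15.5 and 14.9 CPM and then at 7.68, 7.28 and 5.16 CPM with BNC2 siRNA. Its 3 control libraries lay close together, and it fell by 1.15 (SE 0.13, adjusted p = 7.72e-07). SNHG6, host of SNORD87, was at 60.0, 69.5 and 67.6 CPM against 39.1, 30.5 and 33.7 CPM with BNC2 siRNA, a fall to 52.4% of the control mean (log2 fold change −0.93, SE 0.09, adjusted p = 6.91e-08). SNHG7, host of SNORA17A and SNORA17B, fell by 0.40 (SE 0.12, adjusted p = 0.0066). SNHG1 (chr11:62619450-62623425, minus strand), with 9 snoRNA genes inside, fell by 0.21 (SE 0.07, adjusted p = 0.00956), from 48.3 ± 1.34 to 41.8 ± 0.0696 CPM. The 2 hosts with the most snoRNA genes, GAS5 and SNHG1, thus moved in opposite directions.

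The 3 snoRNA hosts that were not called had intervals that include 0. SNHG12, with 4 snoRNA genes inside, had a log2 fold change of 0.19 (95% interval −0.08 to 0.46) and SNHG11 one of −0.26 (−0.60 to 0.09). When 1 library was left out, SNHG12 ranged from 0.09 to 0.29 and SNHG11 from −0.35 to −0.12. SNHG10 stood at 0.01 (−0.29 to 0.30), which leaves room for a change of up to about 0.30 in either direction. The sign of SNHG10 turned under other scalings.

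**Figure D3:**
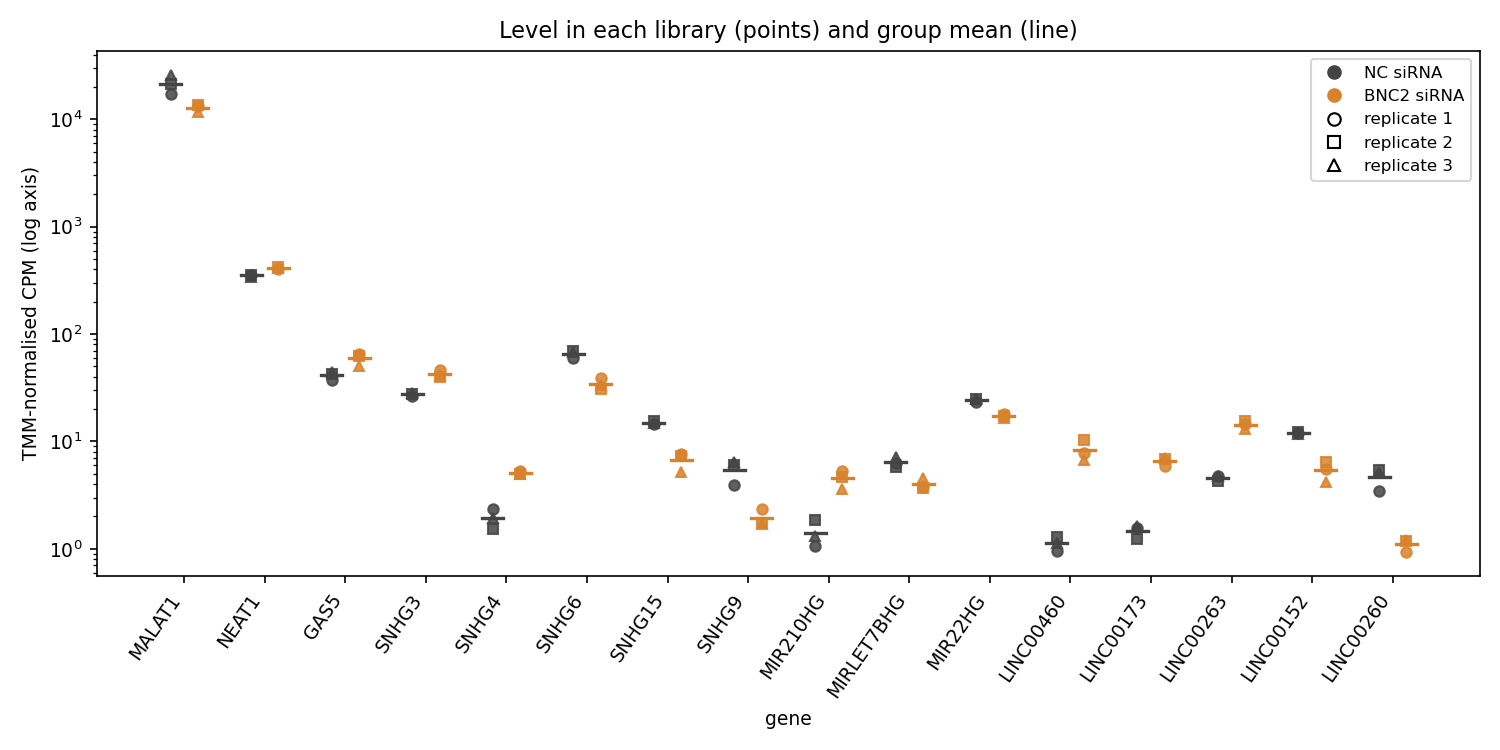
TMM-normalised CPM (log y axis) of 16 members in each library, NC siRNA in grey and BNC2 siRNA in orange, with group means as lines and replicates by symbol. The 16 were picked for display, and none shows overlap between its 3 grey and 3 orange points. They run from MALAT1 at 11820.2 to 26084 CPM down to LINC00260 near 1 CPM with BNC2 siRNA. Groups did not overlap in 32 of all 48 tested members and in 74.9% of all tested genes.

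Of the 14 miRNA hosts, 11 were tested, 2 rose, 2 fell and 7 were not called. The share called was 36.4%, against 72.9% of all genes tested, and this difference was not tested. MIR210HG (chr11:565657-568457 on hg19, minus strand) hosts miR-210, a miRNA best known for its induction in low oxygen. It was at 1.07, 1.85 and 1.32 CPM with NC siRNA and at 5.29, 4.68 and 3.63 CPM with BNC2 siRNA. The groups stood well apart, and the rise of 1.68 (SE 0.23, adjusted p = 5.89e-06, 3.20-fold) was the largest among the miRNA hosts. MIR600HG rose by 0.38 (SE 0.13, adjusted p = 0.0164), from 9.23 ± 1.68 to 12.04 ± 0.914 CPM. The highest control library and the lowest BNC2 siRNA library of MIR600HG were both at 11.2 CPM, and the call was lost without BNC2 siRNA replicate 3, NC siRNA replicate 2 or NC siRNA replicate 3 (adjusted p = 0.0651, 0.0839 and 0.0968) and with library totals (0.0521). MIR600HG shares 254 exon bases with STRBP on the same strand.

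MIRLET7BHG (chr22:46449749-46509808 on hg19, plus strand), host of let-7a-3 and let-7b, was at 6.25, 5.77 and 7.22 CPM with NC siRNA and at 3.78, 3.67 and 4.58 CPM with BNC2 siRNA. It fell by 0.68 (SE 0.16, adjusted p = 0.00103), with no overlap. The other hosts of let-7 genes did not share one pattern. LINC00085 fell by 0.50 (SE 0.17, adjusted p = 0.0122) with overlapping groups (9.58, 6.78 and 9.69 against 5.35, 7.39 and 5.60 CPM) and was not called without BNC2 siRNA replicate 1 (adjusted p = 0.0622). LINC00478 had a log2 fold change of −0.28 (95% interval −0.78 to 0.22), and MIR100HG one of 0.20 (0.02 to 0.39, adjusted p = 0.0566), not called. MIR100HG passed the threshold when BNC2 siRNA replicate 3 or NC siRNA replicate 1 was left out (adjusted p = 0.0187 and 0.0129), and also with no filter (0.00975) and with filterByExpr (0.0472). Over all such leave-outs of 1 library, MIR100HG ranged from 0.11 to 0.28.

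MIR22HG (chr17:1614741-1620468 on hg19, minus strand) was at 23.1, 25.04 and 24.98 CPM with NC siRNA and at 17.9, 17.1 and 16.5 CPM with BNC2 siRNA, a fall of 0.50 (SE 0.09, adjusted p = 6.12e-05). Its replicates lay close together in both groups. MIR17HG, host of the miR-17-92 cluster with 6 miRNA genes, was at 7.21, 9.07 and 8.73 CPM against 6.40, 9.08 and 6.11 CPM. The groups overlapped, and the log2 fold change of −0.21 (95% interval −0.52 to 0.10) was not called. Without BNC2 siRNA replicate 2, the high library, MIR17HG was at −0.41 (adjusted p = 0.0345). At the other end, leaving out 1 library brought it to −0.11, not called.

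MIR31HG, host of miR-31, stood at −0.31 (95% interval −0.59 to −0.04, adjusted p = 0.0549), with its 3 BNC2 siRNA values (5.18, 6.88 and 6.11 CPM) below its 3 control values (7.94, 7.28 and 7.34 CPM). It missed the threshold narrowly and passed it without BNC2 siRNA replicate 2 (−0.41, adjusted p = 0.0331). Its weakest value with 1 library left out was −0.20, not called. MIR31HG was also called lower by the edgeR likelihood ratio test, the test of the study (adjusted p = 0.0393), with DESeq2 size factors (0.04997) and with library totals (0.0204). MIR137HG (−0.30), MIR181A2HG (−0.28), MIR497HG (−0.41) and MIR155HG (0.37) lay at 1.06 to 2.59 CPM in controls and had standard errors of 0.21 to 0.29, and none of the 4 was called. With 1 library left out at a time, MIR155HG ranged from 0.14 to 0.48 and MIR137HG from −0.38 to −0.20. On the strand opposite to MIR497HG lay 93.6% of the reads of that locus, which the reverse-strand counts leave out. In the unstranded column of the library files, which is not the sum of the strands, MIR497HG had 13 to 34 reads a library and was called lower (log2 fold change −0.74, adjusted p = 0.0314).

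Of the 134 LINC genes, 22 were tested, 8 rose, 7 fell and 7 were not called. The 15 called are 68.2% of those tested, near the 72.9% of all tested genes. LINC00460 (chr13:107026825-107036663 on hg19, plus strand) had the largest change among the 48 tested members. Its level was 0.958, 1.29 and 1.14 CPM with NC siRNA, near the limit of the filter, and 7.79, 10.3 and 6.75 CPM with BNC2 siRNA. The rise was 2.87 on the log2 scale (SE 0.22, adjusted p = 4.52e-09), 7.31-fold, and stayed between 2.69 and 2.99 under the alternatives tried. LINC00173 (chr12:116971227-116974323, plus strand) was at 1.58, 1.23 and 1.63 CPM and rose to 5.87, 6.88 and 7.004 CPM (log2 fold change 2.15, SE 0.19, adjusted p = 2.41e-08). Both genes were scarce in control cells and had no overlap between groups.

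LINC00263, now named OLMALINC (chr10:102132856-102213800 on hg19, plus strand), was at 4.79, 4.26 and 4.76 CPM with NC siRNA and at 14.5, 15.6 and 12.9 CPM with BNC2 siRNA. It rose 3.12-fold (log2 fold change 1.64, SE 0.13, adjusted p = 6.1e-09), with replicates close together in both groups. The nearest tested start outside the list, 25866 bases away on the same strand, is that of SCD, the desaturase that makes monounsaturated fatty acids, and SCD rose by 1.49 (SE 0.06, adjusted p = 1.15e-12). LINC00346, now PRECSIT, was at 2.87, 3.47 and 2.95 CPM against 7.21, 7.33 and 5.99 CPM with BNC2 siRNA (log2 fold change 1.14, SE 0.16, adjusted p = 7.21e-06). For LINC00460, LINC00173 and LINC00346, the nearest tested neighbours lay 44739 to 204648 bases away. Unlike SCD, these neighbours were called lower (log2 fold changes of EFNB2 −0.49, C12orf49 −0.76 and ANKRD10 −1.18).

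Smaller rises were those of LINC00174 (0.98), LINC00339 (0.94), LINC00476 (0.59), the antisense gene now named ERCC6L2-AS1, and LINC00294 (0.31). The groups of all 4 did not overlap. LINC00174 shares exon bases with 5 pseudogenes on its strand, and LINC00339 with a pseudogene (222 bases), an unnamed lncRNA (419) and an unnamed coding gene (314), so the counts of both are uncertain. Exon bases are likewise shared on the same strand by LINC00152 with NCAL1 (436), SNHG5 with an unnamed coding gene (943) and the pseudogene PKMP3 (715), and MIR137HG with DPYD (494). The call of LINC00294 was lost without BNC2 siRNA replicate 2 or NC siRNA replicate 2 (adjusted p = 0.0875 and 0.115), and also with library totals (0.0623).

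LINC00260 had the largest fall among the tested members. It was at 3.44, 5.38 and 5.18 CPM with NC siRNA and at 0.931, 1.18 and 1.21 CPM with BNC2 siRNA, 4.19-fold lower (log2 fold change −2.07, SE 0.24, adjusted p = 8.51e-07). LINC00152, now CYTOR, named as a cytoskeleton regulator RNA, was at 12.1, 12.3 and 11.8 CPM against 5.58, 6.43 and 4.20 CPM with BNC2 siRNA. It fell by 1.15 (SE 0.14, adjusted p = 1.6e-06). CYTOR has a close copy elsewhere on its chromosome, and reads that map to both are not in these counts. LINC00265 was at 11.1, 12.7 and 11.3 CPM and fell to 6.40, 6.09 and 5.86 CPM (log2 fold change −0.93, SE 0.12, adjusted p = 2.96e-06). The 3 genes had no overlap between groups.

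LINC00094, the most abundant tested LINC gene, was at 51.7, 53.3 and 50.6 CPM with NC siRNA and at 33.3, 31.6 and 37.8 CPM with BNC2 siRNA (log2 fold change −0.60, SE 0.08, adjusted p = 2.57e-06). It is now annotated as the coding gene BRD3OS and overlaps BRD3 on the other strand. LINC00467 (3.72, 3.70 and 6.38 against 2.44, 3.72 and 1.46 CPM) and LINC00472 (2.25, 1.74 and 1.26 against 0.64, 1.24 and 1.27 CPM) were called lower with overlapping groups. LINC00467 fell by 0.83 (SE 0.28, adjusted p = 0.0134). Its call was lost without BNC2 siRNA replicate 3 (−0.57, adjusted p = 0.0699) or NC siRNA replicate 3 (−0.54, adjusted p = 0.0876). LINC00472 fell by 0.74 (SE 0.31, adjusted p = 0.0412). Its call was lost without BNC2 siRNA replicate 1 (−0.48, adjusted p = 0.194), NC siRNA replicate 1 (−0.54, 0.165) or NC siRNA replicate 2 (−0.77, 0.0642). The call of LINC00472 was also lost with DESeq2 (0.0812), the unstranded column (0.0536) and the replicate block (0.066). With the other 6 uncalled LINC genes between −0.28 and 0.47, LINC00493 was the most abundant that was not called (25.3 ± 1.79 against 22.6 ± 1.66 CPM, log2 fold change −0.16, 95% interval −0.33 to 0.02). Its groups did not overlap, and with library totals LINC00493 was called lower (−0.23, adjusted p = 0.0247). It is now the coding gene SMIM26.

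H19, the imprinted RNA expressed from the maternal allele, had counts of 3, 3 and 9 with NC siRNA and of 1, 0 and 0 with BNC2 siRNA, too few to test. MEG3, the imprinted RNA of the DLK1-DIO3 region, had no read in any library, which allows up to 3 counts in each. LINC00184 had 14, 16 and 24 counts with NC siRNA and 1, 0 and 1 with BNC2 siRNA, below the filter. Set against a floor of 3 counts per library, it was at least 5.85-fold lower with BNC2 siRNA. When the filter was removed, 57 further members could be fitted, and 1 was called higher (MIR4500HG) and 5 lower (LINC00184, H19, LINC00327, LINC00324, LINC00242), where 832 of the 5935 genes below the filter that could be fitted were called in that fit (14%). LINC00324 had 26, 13 and 23 counts with NC siRNA and 9, 8 and 5 with BNC2 siRNA.

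Position was not used to choose the members, and the nearest tested gene start outside the list was found for 47 of the 48. The median distance was 36732 bases, and 37 of the 47 neighbours were called, where 72.9% of all tested genes were. Both genes were called in 27 cases, in the same direction in 16, a count with no test beside the nearly even split of calls over all tested genes. Within 10000 bases, a distance chosen after the values were seen, lay 11 neighbours. Both genes were called in 8 of them and moved the same way in 7, and SNHG9 with RPS2 was the exception.

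SNHG1 starts 51 bases from SLC3A2, the heavy chain of an amino acid transporter, on the opposite strand. SLC3A2 fell by 1.18 (SE 0.06, adjusted p = 7.21e-11), and SNHG1 fell by 0.21. SNHG9 starts 54 bases from RPS2, a ribosomal protein gene, also on the opposite strand. RPS2 rose by 0.42 (SE 0.07, adjusted p = 1.95e-05), and SNHG9 fell by 1.48. GAS5 starts 800 bases from ZBTB37, which rose by 1.03 (SE 0.21, adjusted p = 0.000362), and MIR22HG 651 bases from WDR81, which fell by 0.41 (SE 0.06, adjusted p = 1.71e-05).

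On the same strand, SNHG3 starts 37 bases from RCC1, the exchange factor for the GTPase Ran, which rose by 0.47 (SE 0.06, adjusted p = 1.33e-06). SNHG4 starts 350 bases from MATR3, a nuclear matrix protein gene, which rose by 0.32 (SE 0.06, adjusted p = 6.93e-05). These 2 neighbours share 242 and 626 exon bases with the hosts in GENCODE. Reads that fitted more than 1 gene were listed apart as ambiguous, at 0.775% to 0.840% of the reads of each library. What the shared stretches did to either count was not tested. Farther off, FRMD8 near NEAT1 (36153 bases) fell by 1.62 while NEAT1 rose.

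**Figure D4:**
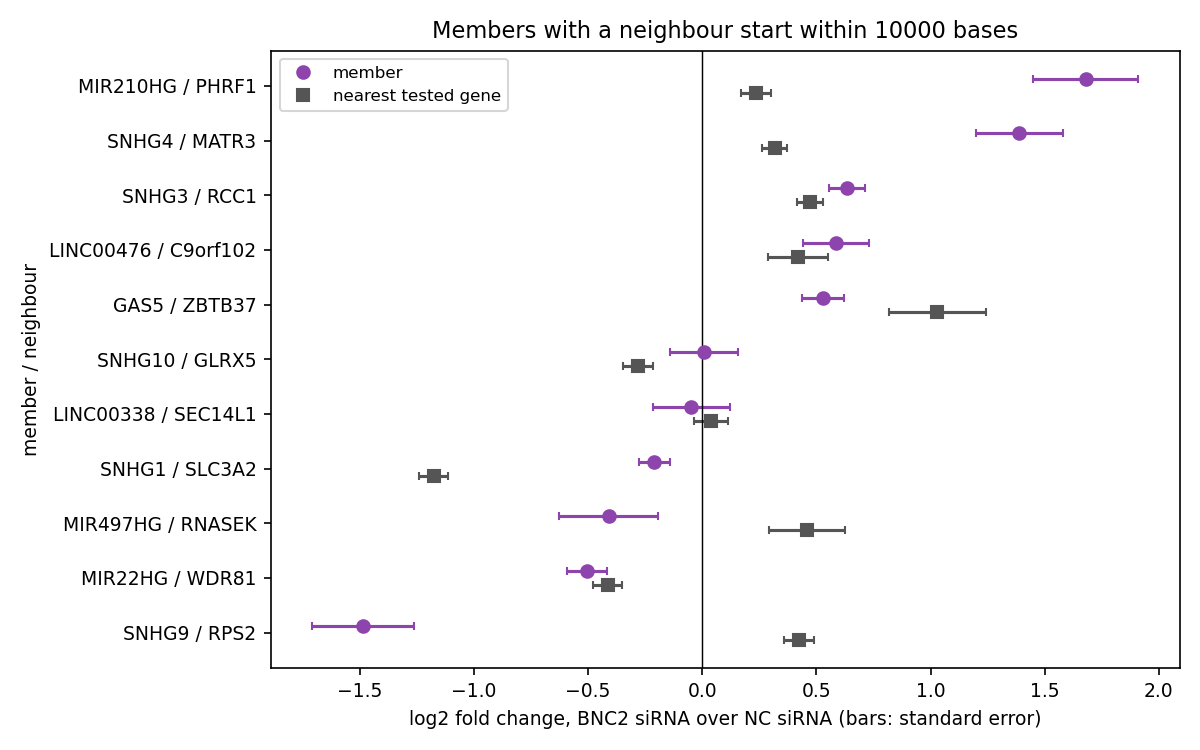
Log2 fold change (x axis, bars are standard errors) of the 11 members with a tested neighbour start within 10000 bases (circles) and of that neighbour (squares). Circle and square lie on the same side of 0 for SNHG3 with RCC1 and GAS5 with ZBTB37, and on opposite sides for SNHG9 with RPS2.

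Genes whose products work with these RNAs were counted in the same fit, list by list, beside the background shares of 36.6% higher and 36.2% lower. Of 18 paraspeckle protein genes, 9 rose, 3 fell and 6 were not called. Of the DBHS proteins that coat NEAT1, NONO rose by 0.31 (SE 0.05, adjusted p = 5.94e-05) and PSPC1 fell by 0.38 (SE 0.06, adjusted p = 1.91e-05). SFPQ stood at 0.13 (SE 0.05, adjusted p = 0.0422), and its call was lost when any library other than BNC2 siRNA replicate 1 was left out (adjusted p from 0.0565 to 0.191). The call of SFPQ was also lost with the replicate block (0.112), DESeq2 (0.0523), DESeq2 size factors (0.0564) and library totals (0.395). These partners were named by role after their values were seen.

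Of 14 genes for snoRNA-protein particles, 4 rose, 5 fell and 5 were not called. The core proteins of box C/D particles did not move together. FBL, the methyltransferase, rose by 0.48 (SE 0.06, adjusted p = 1.04e-06), while NOP56 fell by 0.24 (SE 0.06, adjusted p = 0.00108), NOP58 by 0.55 (SE 0.08, adjusted p = 8.93e-06) and NHP2L1 by 0.64 (SE 0.07, adjusted p = 6.62e-07). Of 14 nonsense-mediated decay genes, 2 rose, 8 fell and 4 were not called, UPF1 among the latter (−0.09, SE 0.06). With library totals UPF1 was called lower (−0.16, adjusted p = 0.0252).

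Of 14 miRNA processing genes, 5 rose, 6 fell and 3 were not called. DROSHA, which cuts hairpins from host transcripts, rose by 0.59 (SE 0.05, adjusted p = 5.83e-08) and DICER1, which cuts the hairpin into the mature duplex, by 0.53 (SE 0.07, adjusted p = 4.75e-06). DGCR8, the partner of DROSHA, was at −0.10 (SE 0.07) and not called, but was called lower with library totals (−0.18, adjusted p = 0.0463). EIF2C4, now AGO4, an Argonaute that binds mature miRNAs, was the only gene of the list to change at least 2-fold, and rose by 1.23 (SE 0.09, adjusted p = 3.86e-09). XPO5, which exports the hairpins, was at 0.16 (SE 0.06, adjusted p = 0.0158), and its call was lost without BNC2 siRNA replicate 2 or 3 or NC siRNA replicate 2 or 3 (adjusted p from 0.052 to 0.118), with the replicate block (0.0576) and with library totals (0.197).

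Coding snoRNA hosts and TOP genes, listed together as coding TOP genes, and the ribosomal protein genes leaned to higher values. The 5′ sequences of these genes were not looked at gene by gene. Of 13 coding TOP genes tested, 8 rose, 1 fell and 4 were not called. Their median difference was 0.43 on the log2 scale, and EEF2, the translation elongation factor, rose by 1.19 (SE 0.05, adjusted p = 7.52e-12). Of 80 ribosomal protein genes tested, 47 rose, 8 fell and 25 were not called, around a median of 0.24. The at least 2-fold changes were those of RPLP0 (1.14, SE 0.07, adjusted p = 2.21e-10) and RPL26L1 (1.37, SE 0.13, adjusted p = 5.88e-08). The median over all tested genes was 0.00 and that of the snoRNA hosts 0.01, beside these values. Of 7 genes of the tRNA-type 3′ end machinery, which trims MALAT1, none rose, 4 fell and 3 were not called by the edgeR quasi-likelihood test, and 0 were higher at an unadjusted p under 0.05 or with DESeq2. None of the listed imprinted neighbours of H19 and MEG3 passed the filter.

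**Figure D5:**
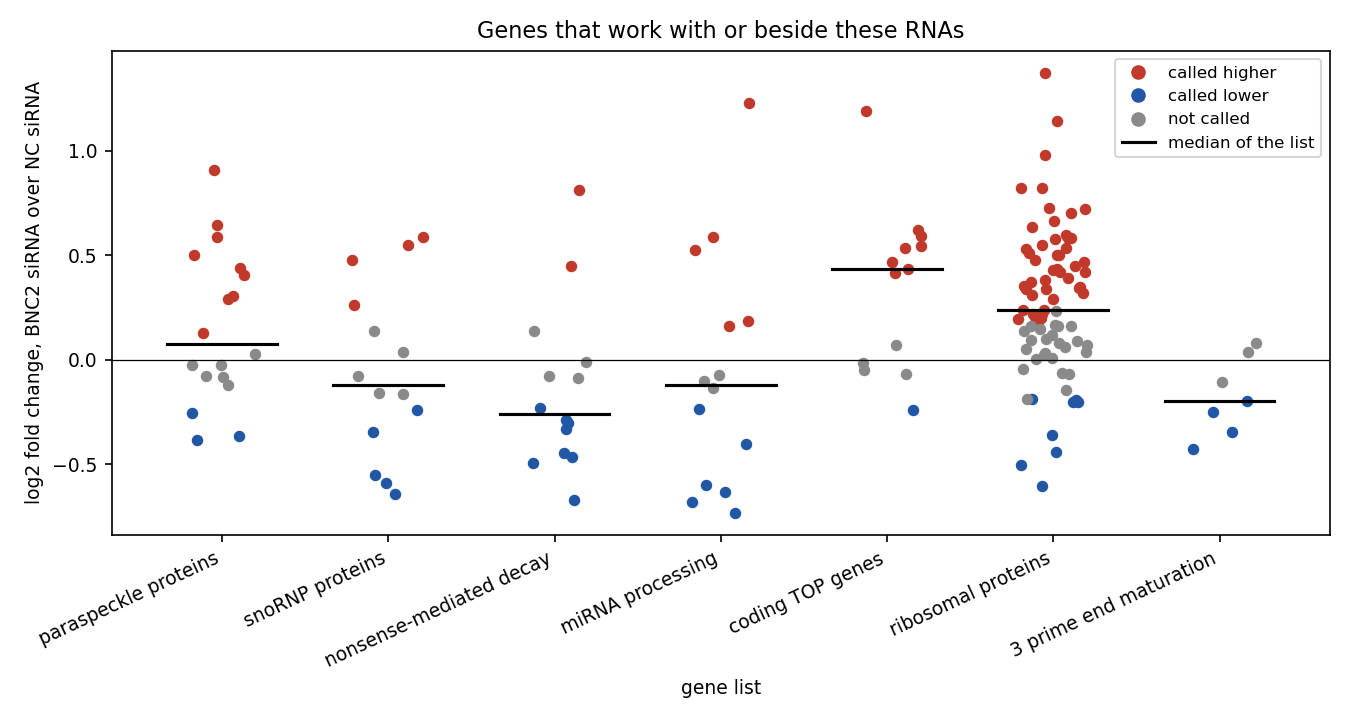
Log2 fold change (y axis) of each tested gene in 7 lists of genes that work with or beside these RNAs, with the list median as a line and colour by call. The ribosomal protein and coding TOP lists have medians of 0.24 and 0.43, and the 3′ end list has none called higher.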

How the data were processed

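RNA was poly(A)-selected from 6 BT549 cultures and made into KAPA HyperPrep libraries. The deposited values are counts of reads per gene: per the labels and the submitters' processing notes, the authors aligned to hg19 with STAR 2.6.1d. The series table equals the reverse-strand column of the library files in all 23346 genes, so counting used strand. For the siRNA transfection the labels name a Lipofectamine reagent other than RNAiMax, while the methods of the paper name RNAiMax.

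Differential expression was tested with edgeR 4.0.16 (glmQLFit, glmQLFTest) in R 4.3.3 on the deposited counts, with TMM scaling (factors 0.972 to 1.04), genes over 1 CPM in at least 3 libraries, and Benjamini-Hochberg adjustment over all 12186 genes tested. A call is an adjusted p of at most 0.05. CPM are TMM-normalised, and the standard error is the size of the log2 fold change over the square root of F. The script was tested on simulated data. Reads on no gene stayed out of library sizes. Counting error, and not culture variation, is what a floor of 3 counts covers.

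Hg19 positions and shared exon bases are from GENCODE, which placed 47 of the 48 tested members. The paper names UCSC hg19 gene annotations for its counts, and the bases shared in those gene models may differ. Sequences are from RefSeq GRCh38.p14. Matched RefSeq miRNA genes were found for 9 of 11 tested miRNA hosts. Named were MALAT1, NEAT1, H19, MEG3, GAS5, every tested SNHG and miRNA host, the LINC genes with the 8 largest called rises and falls or the 5 highest levels, members at the floor in 1 group, and partner genes changed at least 2-fold; neighbours and core partners were added after their values were seen. The members and lists were chosen with earlier results of these data known. Alternatives were the likelihood ratio test, DESeq2 1.42.0, other scalings and filters, the unstranded column, a replicate block and leaving out each library. The replicates differed by more than sampling noise.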

Additional observations from a re-analysis of the deposited data

Results flagged for a closer look

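Reads on the strand opposite to 3 members, which the comparisons leave out, were higher with BNC2 siRNA in every library. Of the 15 members with at least 20 such reads, 3 were higher in this way and 5 lower (MALAT1, SNHG6, SNHG7, SNHG10, SNHG12). The share of all genes that pass the same rule on that strand was not counted, so these counts have no background. All gene counts on that strand were lower with BNC2 siRNA (261496 to 345051) than with NC siRNA (350780 to 379432). Opposite to MIR497HG, where the coding gene C17orf49 shares 1466 exon bases, they averaged 34.2 CPM with BNC2 siRNA and 26.1 CPM with NC siRNA. Opposite to LINC00094, where BRD3 lies, they averaged 15.7 and 11.7 CPM. Opposite to LINC00319, which has too few reads of its own to test, they averaged 0.659 and 0.0975 CPM. Each difference had an exact two-sided permutation p of 0.1, the smallest that 3 against 3 libraries allow.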

How the results depend on the processing

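Of the 31 called members, 24 kept their call and direction under all alternatives (15 per member, 14 for MALAT1), 7 lost it under some and none turned sign. The replicate numbers did not pair the samples (correlations of same-numbered libraries −0.29, −0.10 and −0.17), and with the replicate block 29 of the 31 members remained called (SNHG8, 0.0636, and LINC00472, 0.066, did not). Leaving MALAT1 out of the counts kept the other 30 calls.

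Counts that moved did so as follows. Without a filter, 9 members were at least 2-fold lower (4 in the report), 11 LINC genes lower (7), 4 miRNA hosts higher (2), 2 genes of 3′ end maturation lower (4), 1 imprinted neighbour higher and 1 lower (0), and the members' median was −0.25 (−0.16). With filterByExpr, 7 members were at least 2-fold lower and 4 miRNA hosts higher. With library totals, 3 snoRNA hosts (5), 1 miRNA host and 3 miRNA processing genes (5) were higher, and 6 paraspeckle (3), 8 snoRNP (5) and 2 coding TOP genes (1) lower. The block left 3 miRNA processing genes higher and 2 of 3′ end maturation lower. The share of counts was −0.00484 points without MALAT1 and NEAT1 (−0.952). SNHG10 turned sign with DESeq2 size factors (−0.000822), library totals (−0.0697) and the unstranded column (−0.0304). Why they moved was not tested, except that more genes were tested without a filter.

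Leaving out 1 library gave 3 to 5 snoRNA hosts higher, 1 to 3 miRNA hosts higher and 2 to 4 lower, 5 to 8 snoRNP genes lower, 3 to 4 miRNA processing genes higher, 0 to 2 coding TOP and 4 to 10 ribosomal protein genes lower, 2 to 4 genes of 3′ end maturation lower, a members' median of −0.25 to −0.10, and SNHG10 between −0.14 and 0.10. Members near 1 CPM had 11 to 40 counts a library, which limits them to large changes.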

Other observations

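The strand opposite to MALAT1 held 1245, 1275 and 1386 reads with NC siRNA, while the counts with BNC2 siRNA were 345, 653 and 269. That is 75.0 ± 7.34 CPM against 24.7 ± 10.6 CPM (SD, n = 3), or 0.349% and 0.194% of the sense reads. The groups did not overlap (exact two-sided permutation p = 0.1, the smallest that 3 against 3 libraries allow). All gene counts on that strand were also lower with BNC2 siRNA, at 261496 to 345051 against 350780 to 379432. Opposite reads of SNHG6 (0.573 to 0.0782 CPM), SNHG7 (1.24 to 0.769 CPM), SNHG10 (0.343 to 0.116 CPM) and SNHG12 (0.496 to 0.121 CPM) were lower too.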
